A study of Homo sapiens with 3 samples.

Results

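The genes described here are 40 genes of glycolysis and of the transcriptional response to hypoxia. They were measured with and without the NAMPT inhibitor FK866 in MM1S, a long-established cell line from human multiple myeloma. Probe sets were taken when the platform annotation gave them exactly 1 gene symbol, that of a member, and when their mean signal over the 3 arrays was 20 or more. This left 70 of 92 member probe sets and 36 of 40 member genes, among 11330 genes of the whole table kept by the same rule. Of the 36, 16 were glycolytic enzymes, 18 were listed as other targets of the hypoxia-inducible factors (HIF), and 2 were the HIF alpha subunits. The rule takes genes by name, with no threshold on their differences, and the list was drawn up with earlier results of these data known.

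FK866 blocks NAMPT, which cells need to rebuild NAD from nicotinamide. Untreated MM1S cells, labelled 0 h, gave 1 array, and cells given 10 nM FK866 for 6 h and for 24 h gave 1 array each. All cells grew in the same serum-containing RPMI medium. No untreated array belongs to a treated time, so FK866 and time in culture cannot be told apart. Since each group has 1 array, no statistical test is given and no difference can be set against variation between cultures.

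Glycolysis converts glucose to pyruvate and spends NAD at the step catalysed by glyceraldehyde-3-phosphate dehydrogenase (GAPDH). Lactate dehydrogenase restores that NAD by reducing pyruvate to lactate. HIF1A and EPAS1 (HIF-2 alpha) are transcription factor subunits that prolyl hydroxylases mark for degradation when oxygen is present, and many glycolytic genes are among their targets. HIF1A is controlled largely through the stability of its protein, which an RNA array does not measure.

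Signals are in arbitrary units on a linear scale. They were set to a floor of 16 where lower, and a difference is a log2 difference between 2 arrays, with a fold being 2 to the power of its size. Each gene is represented by the brightest of its kept probe sets, and 16 members had several. The median gene of the table differed from untreated cells by -0.10 at 6 h and -0.13 at 24 h on the log2 scale, and differences are to be read against these shifts. Probe sets of the same gene spread with a pooled SD of 0.37 at 6 h and at 24 h against untreated cells, and of 0.34 for 24 h against 6 h, which covers probe error and isoforms, not cultures. Of the plasma cell markers, 10 of 10 had a signal of 423 or more on every array. Those of B cells, T and NK cells and myeloid cells had a highest signal of 48.5. Of 5 stroma markers, COL1A1 gave 102 untreated, 53.4 at 6 h and 19.3 at 24 h, and its part in the results was not tested. The summed level of the stroma markers was 152, 109 and 68.6, and its fall was mainly that of COL1A1. The other markers did not fall as a group. COL1A2 had 16.6, 18.3 and 18.4, and LUM had 3.0, 16.6 and 15.8. DCN had 24.1, 18.0 and 13.1, and COL3A1 had 6.6, 2.6 and 2.0.

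Transcripts of the glycolytic enzymes stayed close to their untreated level at both times. Of 16 measured enzymes, 0 reached 1.5-fold in either direction at 6 h, where 5.38% of all genes were higher and 10.5% lower by that size. At 24 h again 0 enzymes did so, against 4.55% of all genes higher and 13.2% lower. Their median difference was -0.11 at 6 h and -0.15 at 24 h, and after subtraction of the median difference of all genes it was -0.01 and -0.02. At each time 8 of the 16 enzymes lay above the median of all genes. Most of them are abundant transcripts: 9 of 16 had a mean signal of at least 1024, as did 19.6% of all genes, and bright genes differed less often in the whole table.

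**Figure D1:**
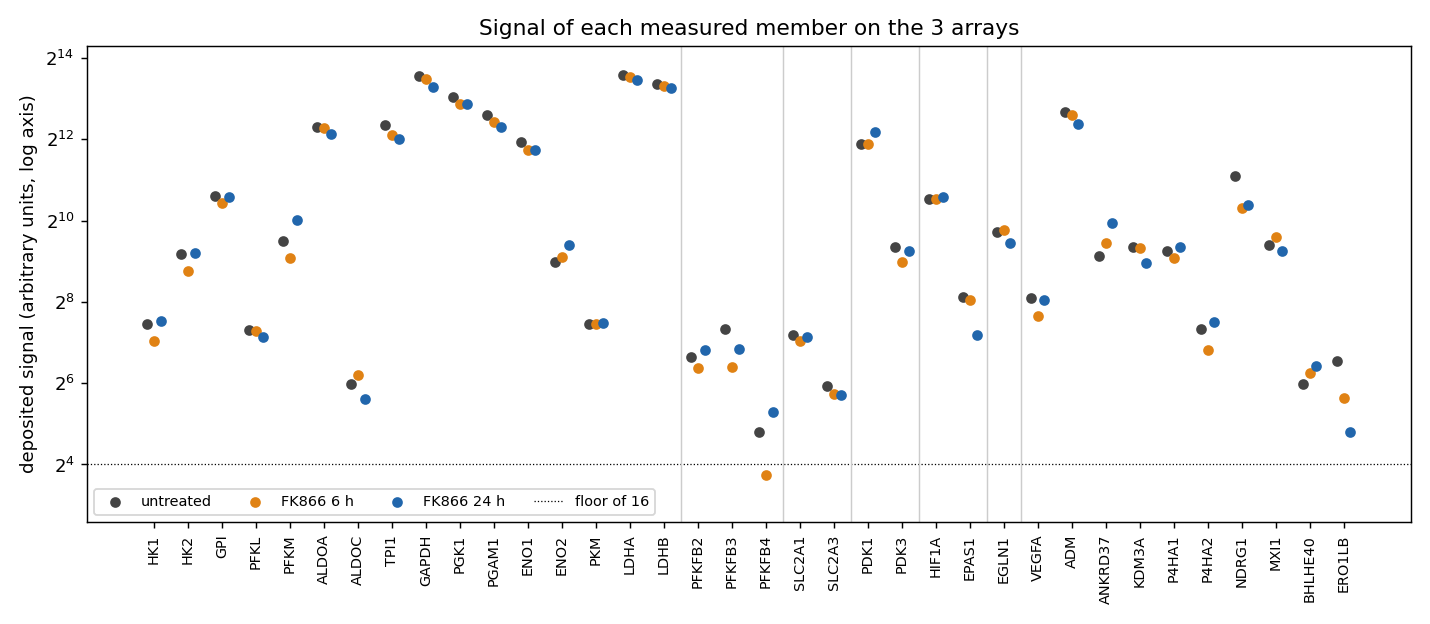
Deposited signal (log axis, arbitrary units) of the 36 measured members on the untreated, 6 h and 24 h arrays, 1 point per array, with vertical lines between gene classes. LDHA, GAPDH and LDHB have no signal under 9863 on the 3 arrays, and only PFKFB4 at 6 h lies under the floor of 16.

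At the entry of the pathway, the hexokinases and phosphofructokinase M had their lowest signal at 6 h. HK1, which phosphorylates glucose, gave a signal of 175 untreated, 132 at 6 h and 185 at 24 h. Its paralogue HK2 had 578, 432 and 594. Both differed from untreated cells by about the pooled probe set SD at 6 h (-0.40 and -0.42), and by 0.08 and 0.04 at 24 h. The dim second probe set of HK2 went another way, with signals of 15.8, 30.5 and 32.1. GPI, the isomerase that follows, had 1552, 1395 and 1540.

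PFKM, the muscle-type subunit of phosphofructokinase, which commits glucose to glycolysis, varied most among the enzymes. Its 1 kept probe set gave 729 untreated, 541 at 6 h and 1031 at 24 h. The 24 h signal was the highest of the 3 and was 1.90-fold higher than at 6 h. Against untreated cells PFKM differed by -0.43 at 6 h and 0.50 at 24 h. The 24 h value passed 1.5-fold (0.58 on the log2 scale) after quantile normalization, at 0.66, and after the other 2 scalings, at 0.75 and 0.63. The liver-type subunit PFKL had 158, 156 and 141, and both its probe sets lay within -0.23 and -0.02. The platelet-type subunit PFKP was left out, with its brightest probe set at 18.4, 13.8 and 9.1.

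By their brightest probe sets, the middle and lower steps of the pathway showed small differences. The aldolase ALDOA, which splits fructose 1,6-bisphosphate, had signals of 5083, 4996 and 4527. A dimmer ALDOA probe set had 607, 486 and 407, a difference of -0.58 at 24 h. The dim paralogue ALDOC had 63.6, 73.1 and 49.1, with differences of 0.20 and -0.37. Triosephosphate isomerase, TPI1, had 5208, 4420 and 4145. Its bright probe sets differed by -0.33 and -0.14 at 24 h, whereas a much dimmer probe set had 119, 123 and 56.1, a difference of -1.09.

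GAPDH, the NAD-dependent step, had signals of 11999, 11498 and 9954. Its 6 kept probe sets, 3 of them Affymetrix controls along the transcript, agreed closely, between -0.06 and 0.06 at 6 h and between -0.35 and -0.13 at 24 h. The kinase PGK1, the first step that yields ATP, had 8476, 7520 and 7490. A dim PGK1 probe set (44.8 untreated and 24.7 at 24 h) lay at -1.40 at 6 h. A brighter one (2119 untreated) lay at -0.35 at 6 h and -0.50 at 24 h. The mutase PGAM1 had 6197, 5481 and 5085.

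Of the enolases, ENO1 had signals of 3935, 3390 and 3440, and ENO2 had 509, 555 and 675. ENO2, the form known from neurons, was highest at 24 h, with a difference of 0.41, above that of 91.5% of all genes. It passed 1.5-fold only when the arrays were centred on their medians (0.65). Pyruvate kinase, PKM, was nearly level at 176, 176 and 178 by its brighter probe set, while a dim one had 42.0, 22.1 and 37.2, a difference of -0.93 at 6 h. The lactate dehydrogenases varied little. LDHA had 12258, 11964 and 11245, and LDHB 10467, 10242 and 9863, so neither differed by more than 0.12 at either time.

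**Figure D2:**
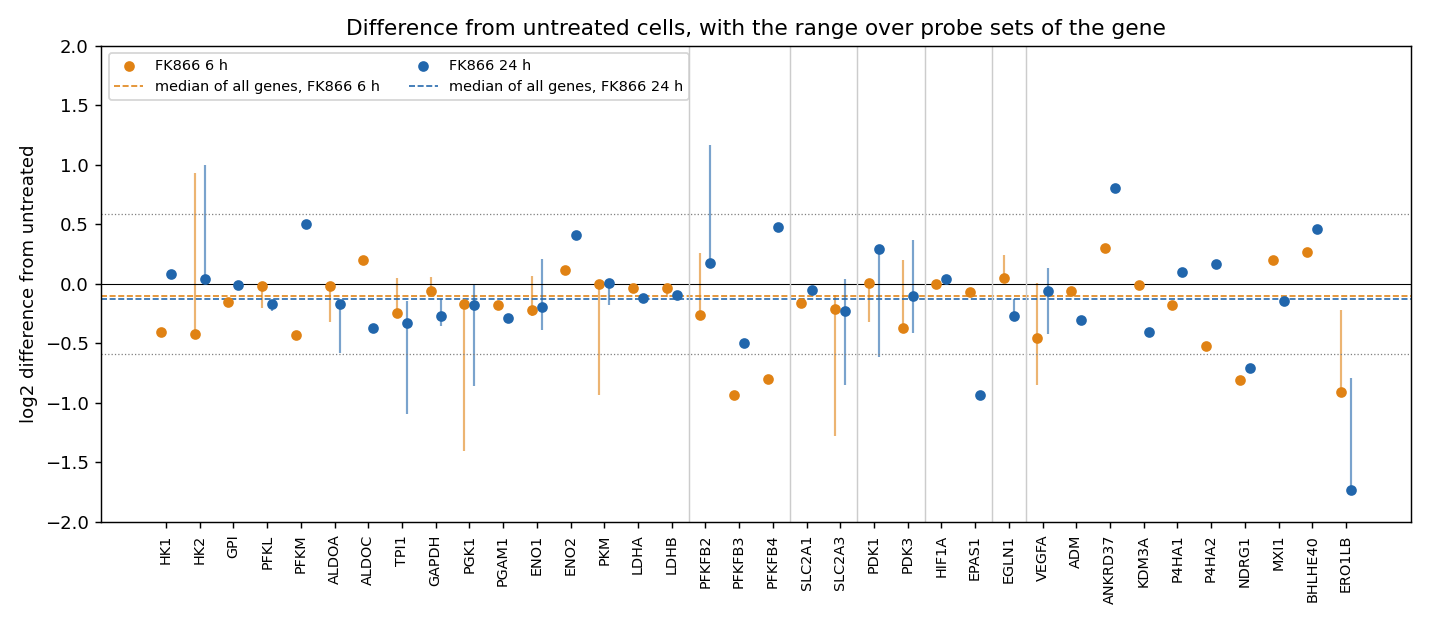
Log2 difference from untreated cells at 6 h and 24 h for each measured member. Points are the brightest probe set, vertical bars the range over the gene's kept probe sets, dashed lines the median of all genes and dotted lines 1.5-fold. The 16 enzymes, from HK1 to LDHB, lie within the dotted lines, and ERO1LB at 24 h is the lowest point at -1.73.

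The PFKFB genes, whose bifunctional enzymes make and remove fructose 2,6-bisphosphate, the main activator of phosphofructokinase, had their lowest signals at 6 h. PFKFB3 gave 162 untreated, 85.1 at 6 h and 115 at 24 h. It was 1.90-fold lower at 6 h, where 96.1% of all genes had a higher difference, and differed by -0.50 at 24 h. PFKFB4 was dim, with 27.8, 13.4 and 38.9, so its 6 h signal lay under the floor. It was therefore at least 1.74-fold lower at 6 h than in untreated cells, and at 24 h at least 2.43-fold higher than at 6 h. With a floor of 64 both PFKFB4 differences were 0. PFKFB2 had 99.7, 83.1 and 113 by its brighter probe set, and a dim probe set had 15.8, 19.2 and 35.9. PFKFB3 and PFKFB4 rest on 1 kept probe set each.

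The glucose transporters and pyruvate dehydrogenase kinases stayed within 1.5-fold. SLC2A1 (GLUT1), the widely expressed transporter, had signals of 146, 130 and 141, and SLC2A3 (GLUT3) had 61.3, 53.0 and 52.3 by its brightest probe set. A dimmer SLC2A3 probe set had 38.9, 6.3 and 21.6, which puts its 6 h value under the floor. PDK1, a kinase that keeps pyruvate out of the mitochondrial dehydrogenase, had 3784, 3811 and 4638. Its brightest probe set was highest at 24 h (0.29), and the 3 probe sets ranged from -0.61 to 0.29. PDK3 had 654, 506 and 612, with 5 probe sets between -0.41 and 0.37 at 24 h.

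The HIF alpha subunits parted at 24 h. HIF1A gave 1483 untreated, 1488 at 6 h and 1521 at 24 h, so its transcript was level on all 3 arrays. EPAS1 had 278, 266 and 146. It was 1.91-fold lower at 24 h than in untreated cells and 1.82-fold lower than at 6 h. Its 24 h difference of -0.93 lay below that of 95.1% of all genes. It was -0.78 after quantile normalization, -0.69 after centring on array medians and -0.80 after subtraction of the median gene. The other alternatives could not change it, since they leave a single kept probe set above the floors as it is. EPAS1 rests on 1 kept probe set, and its other probe sets had signals of 13.5 or less. The difference between the subunits was not tested.

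Of the prolyl hydroxylases, EGLN1 (PHD2), which is itself a HIF target, had signals of 839, 871 and 696. Its 3 kept probe sets agreed, between 0.05 and 0.24 at 6 h and between -0.27 and -0.13 at 24 h. EGLN3 was left out, with 15.7, 8.1 and 7.1 by its brighter probe set.

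Among the further targets, ANKRD37, an ankyrin repeat protein, was the only member at least 1.5-fold higher than in untreated cells at either time. Its signal was 565 untreated, 696 at 6 h and 988 at 24 h. The 24 h signal was 1.75-fold higher, above 97.8% of all genes. The difference of 0.81 was 0.95 after quantile normalization, 1.05 after centring on array medians and 0.93 after subtraction of the median gene. The other alternatives could not change it, since they leave a single kept probe set above the floors as it is. BHLHE40, a transcriptional repressor, was dim, with 62.9, 76.0 and 86.4, and differed by 0.27 and 0.46. Its 24 h difference passed 1.5-fold after quantile normalization (0.71), centring on array medians (0.70) and subtraction of the median gene (0.59).

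NDRG1, a stress-responsive gene induced by hypoxia, was lower on both treated arrays. Its signal was 2206 untreated, 1262 at 6 h and 1349 at 24 h, so the treated arrays were close to each other. Against untreated cells it was lower by 1.75-fold at 6 h and by 1.64-fold at 24 h. These calls moved with the scaling: the difference was -0.58 at 6 h after centring on array medians, and at 24 h -0.53 after quantile normalization, -0.46 after centring and -0.58 after subtraction of the median gene, all short of 1.5-fold. NDRG1 rests on 1 kept probe set.

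ERO1LB, now named ERO1B, encodes an oxidase that forms disulfide bonds in the endoplasmic reticulum and is known to be induced by the unfolded protein response. Its 24 h difference was the largest of all 36 members. Its brighter probe set gave 92.7 untreated, 49.5 at 6 h and 27.9 at 24 h, and the other had 60.5, 51.9 and 35.1. Both were highest in untreated cells and lowest at 24 h. ERO1LB was lower by 1.87-fold at 6 h and by 3.32-fold at 24 h, where only 0.7% of all genes had a lower difference. The second probe set gave -0.22 and -0.79. With a floor of 64 the 24 h difference was -0.53, and with the mean over probe sets the 6 h difference was -0.56. Its paralogue ERO1A, which is the hypoxia-induced form, had signals of 1081, 859 and 761, with differences of -0.33 and -0.51.

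The collagen prolyl hydroxylase subunits P4HA1 and P4HA2 had their lowest signals at 6 h. P4HA2 had signals of 161, 112 and 182, and was 1.62-fold higher at 24 h than at 6 h. P4HA1 had 613, 542 and 658. VEGFA, the angiogenic growth factor, had 275, 202 and 264, and its 3 probe sets ranged from -0.85 to 0.01 at 6 h and from -0.42 to 0.13 at 24 h. ADM, the peptide adrenomedullin, was among the brightest members, with 6491, 6224 and 5286. KDM3A, a histone demethylase, had 653, 647 and 495, and MXI1, an antagonist of MYC, had 677, 780 and 613. BNIP3, a mitochondrial protein of mitophagy and a common hypoxia marker, had signals of at most 5.1 on any array and was left out. CA9 was not analysed here, since no probe set carried its symbol.

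**Figure D3:**
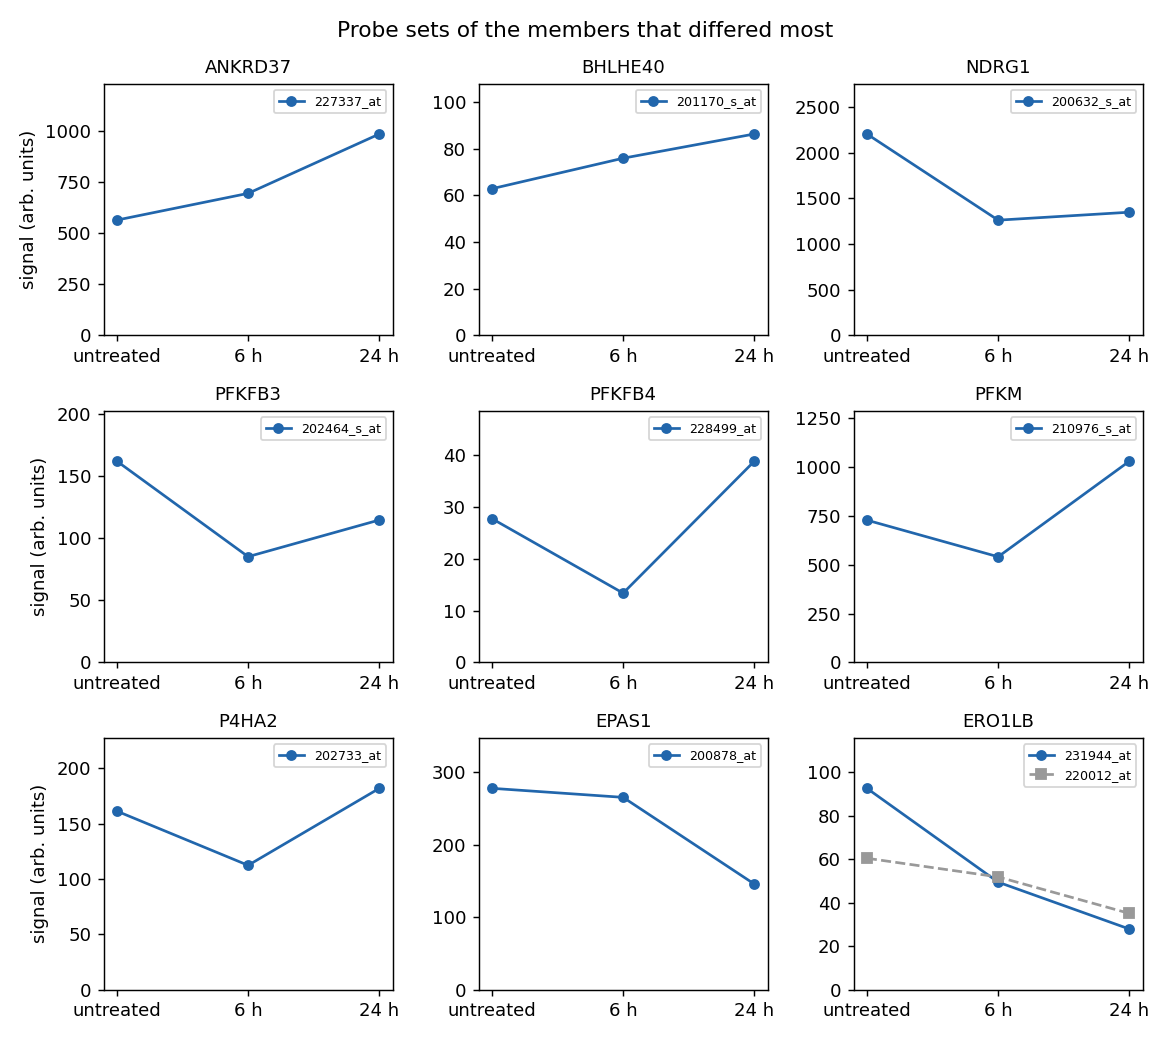
Signals (linear axis from 0) of the kept probe sets of 9 members chosen after their values were seen. Blue circles are the probe set used for the gene and grey squares another one. ANKRD37 and BHLHE40 are highest at 24 h, PFKFB3, PFKFB4, PFKM and P4HA2 are lowest at 6 h, and EPAS1 and ERO1LB are lowest at 24 h.

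At 6 h, 4 of 36 members were at least 1.5-fold lower, namely PFKFB3, PFKFB4, NDRG1 and ERO1LB, against 10.5% of all genes. At least 1.5-fold higher were 0 members, against 5.38% of all genes. At 2-fold the counts were 0 members higher and 0 lower, against 1.46% and 3.12% of all genes. The share of lower members, 11.1%, was near the background, so it is no result about the members.

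At 24 h, 3 of 36 members were at least 1.5-fold lower, namely EPAS1, NDRG1 and ERO1LB, against 13.2% of all genes. ANKRD37 alone was at least 1.5-fold higher, against 4.55% of all genes. ERO1LB was the only member at least 2-fold lower, against 4.02% of all genes, and 0 members were 2-fold higher, against 1.11%. After quantile normalization 4 members were at least 1.5-fold higher at 24 h, ANKRD37, PFKM, PFKFB4 and BHLHE40, and centring on array medians added ENO2. All genes moved likewise, with 9.39% and 10.6% at least 1.5-fold higher under these scalings.

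Between the treated arrays, PFKM, PFKFB4 and P4HA2 were at least 1.5-fold higher at 24 h, 3 of 36 against 4.72% of all genes, and EPAS1 and ERO1LB at least 1.5-fold lower, 2 of 36 against 7.56%. PFKFB4 alone passed 2-fold upward, where 1.05% of all genes did, and 0 members passed it downward, where 1.84% did. The comparisons share arrays with each other, so their counts are not independent.

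Over the whole table, 609 genes were higher and 1186 lower by at least 1.5-fold at 6 h, and 1035 and 713 after quantile normalization. At 24 h the numbers were 515 and 1496, and 1064 and 807 after quantile normalization, so the balance of directions depended on the scaling. Signal level bears on these counts as well. Among genes with a mean signal of 20 to 64, 34.8% differed at least 1.5-fold either way at 6 h and 36.7% at 24 h. Of 4 members at that level, 2 did so at 6 h and 1 at 24 h. From a mean signal of 1024 upward the shares were 4.28% and 6.03%. Of 13 members there, NDRG1 alone passed at each time.

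**Figure D4:**
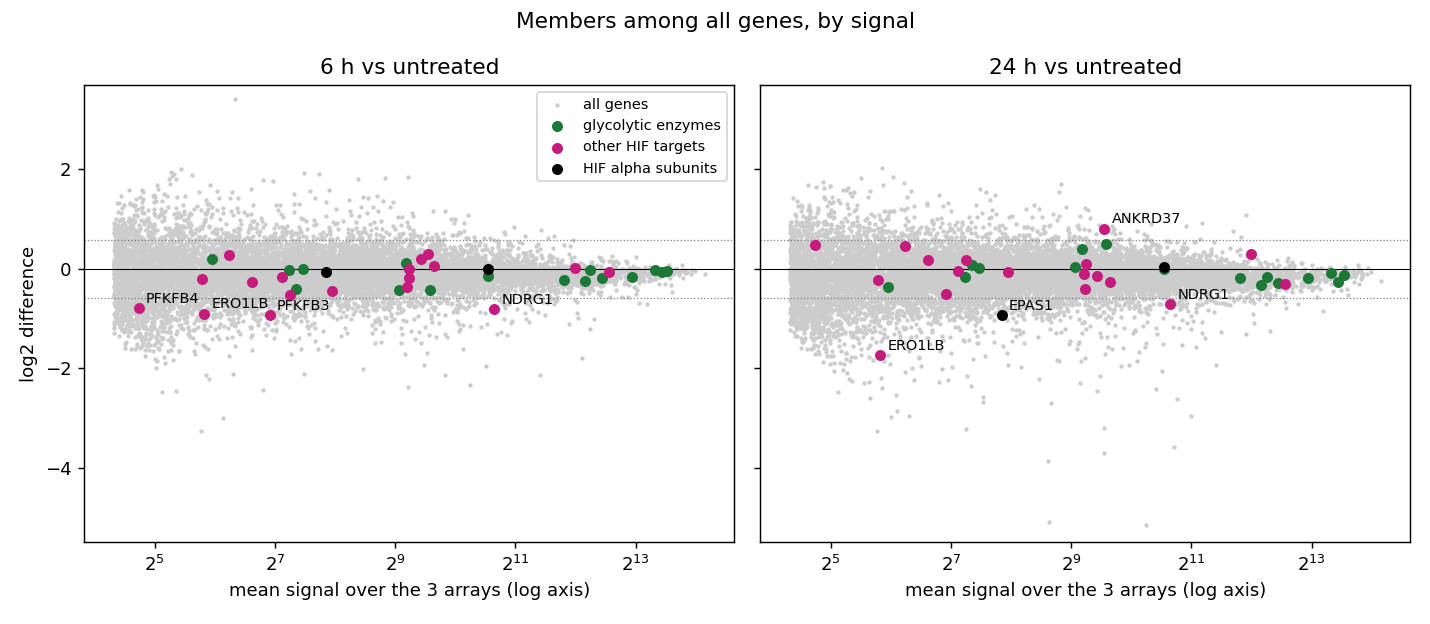
Log2 difference against the mean signal over the 3 arrays (log axis) for all 11330 genes in grey and the members in colour, at 6 h and 24 h. Dotted lines mark 1.5-fold, and members past it are named. The cloud of all genes narrows with signal, and NDRG1 is the only named member above a mean signal of 1024.

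The glycolytic enzymes and the other HIF targets differed little in their medians against untreated cells. The other HIF targets had a median of -0.19 at 6 h and -0.08 at 24 h, so the enzymes' median lay 0.09 above theirs at 6 h and 0.07 below it at 24 h (-0.07). Between the treated arrays the other HIF targets had a median of 0.23 and the enzymes -0.03, against -0.04 for all genes. In that comparison 13 of 18 other targets and 8 of 16 enzymes lay above the median of all genes. The gap of -0.26 was -0.09 with the 3 PFKFB genes counted among the enzymes, and -0.15 with the mean over probe sets or without the filter on level. The other targets also spread more widely, from -0.93 to 0.30 at 6 h and from -1.73 to 0.81 at 24 h, against -0.43 to 0.20 and -0.37 to 0.50 for the enzymes. The -1.73 is that of ERO1LB, in this class by the list although its paralogue ERO1A is the hypoxia-induced form. NDRG1 was next lowest at 24 h, at -0.71. They were dimmer, with a median untreated signal of 420.0 against 2743.

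The promoters of the members were read from RefSeq (GRCh38.p14), and windows were used for 32 of the 36. Those of PFKFB2, SLC2A3, VEGFA and NDRG1 were not analysed here. Each window was the 250 bases before an annotated start. HIF binds a core of ACGTG or GCGTG, searched here on both strands, and the E-box CACGTG holds ACGTG on each strand. ACGTG was found for 18 of 32 members, 10 of 16 enzymes and 8 of 14 other targets among them, and for 29.0% of 9285 genes of the table. By window it was 38.2% of 55 member windows against 22.3% of 13478. GCGTG was found for 17 of 32 members (53.1%), against 53.2% of all genes, and CACGTG for 8 of 32, against 11.4%. A match is a description of the sequence and not a binding site.

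A stretch of 30 bases with neighbouring matches is shown for ANKRD37, the member with the highest difference at 24 h, and for BHLHE40. Matches to ACGTG or its complement are in capitals. The stretches lie at chr4:185396679-185396708, 162 to 133 bases before the start, and at chr3:4979263-4979292, 174 to 145 bases before it, both on the plus strand. BHLHE40 also has a CACGTG 245 bases before the start, outside the stretch. The ANKRD37 window overlaps the annotated gene LRP2BP, and that of BHLHE40 overlaps BHLHE40-AS1.
ANKRD37: CACGTGccagtgtttgtgtACGTGcggccg
BHLHE40: ACGTGcctggagtcacagggtagaaCACGT

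Whole windows are shown for LDHA (chr11:18394313-18394562, plus strand) and ENO2 (chr12:6914330-6914579, plus strand), a bright enzyme that varied little and the enolase highest at 24 h. The LDHA window has 5 matches on the 2 strands, 2 of them in each CACGTG, and that of ENO2 has 1. Another LDHA window, at chr11:18396101-18396350, is not shown and holds 0 matches to ACGTG. The windows of EPAS1 (chr2:46297157-46297406, plus strand) and ERO1LB (chr1:236281959-236282208, minus strand), the members lowest at 24 h, hold 0 matches to ACGTG and so have no capitals. They hold 1 and 2 matches to GCGTG, the other HIF core, which is not marked. The genes shown were chosen with their values in view, so the windows are no comparison of higher and lower members.
LDHA: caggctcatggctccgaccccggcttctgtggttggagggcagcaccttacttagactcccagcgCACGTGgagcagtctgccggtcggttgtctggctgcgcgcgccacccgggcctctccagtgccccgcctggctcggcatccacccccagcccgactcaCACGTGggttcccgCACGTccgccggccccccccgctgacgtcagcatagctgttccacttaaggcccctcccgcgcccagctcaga
ENO2: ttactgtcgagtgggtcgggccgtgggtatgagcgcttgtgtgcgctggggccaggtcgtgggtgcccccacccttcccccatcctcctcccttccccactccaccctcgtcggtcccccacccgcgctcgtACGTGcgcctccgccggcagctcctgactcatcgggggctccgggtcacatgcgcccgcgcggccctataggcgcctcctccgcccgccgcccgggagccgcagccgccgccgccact
EPAS1: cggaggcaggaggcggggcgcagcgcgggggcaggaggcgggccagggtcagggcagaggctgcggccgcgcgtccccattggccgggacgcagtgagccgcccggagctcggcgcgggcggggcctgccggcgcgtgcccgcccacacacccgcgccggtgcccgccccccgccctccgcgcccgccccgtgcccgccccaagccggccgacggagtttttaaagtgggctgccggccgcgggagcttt
ERO1LB: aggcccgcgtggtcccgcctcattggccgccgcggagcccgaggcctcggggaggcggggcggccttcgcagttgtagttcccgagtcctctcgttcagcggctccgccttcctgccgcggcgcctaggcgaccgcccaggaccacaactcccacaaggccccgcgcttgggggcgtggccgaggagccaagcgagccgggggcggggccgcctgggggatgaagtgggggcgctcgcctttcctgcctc

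With ACGTG in a window, 18 members had a median difference of -0.05 at 6 h and -0.11 at 24 h against untreated cells, and without it, 14 members had -0.11 and -0.13. All genes had -0.11 and -0.12 with it and -0.10 and -0.13 without it. Among the other HIF targets alone the medians at 6 h were 0.03 for 8 genes with it and -0.34 for 6 without it. At 24 h they were 0.0 and -0.17. The enzymes, 10 with it and 6 without it, had -0.11 and -0.10 at 6 h and -0.15 and -0.13 at 24 h. Between the treated arrays the medians with and without it were 0.16 and -0.02 for the members, and -0.02 and -0.04 for all genes. There the other HIF targets had 0.28 and -0.06, and the enzymes -0.05 and -0.02. LDHA, with 5 matches in the window shown, was level, and ANKRD37, with 3, had the highest difference of the members at 24 h. The count of matches thus did not order these genes, which were chosen with their values in view. These values have no test, since members are not replicates of a condition.

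Other genes of glycolysis and of pyruvate use were read from a list of 35, of which 20 were measured. Past 1.5-fold, 1 was higher and 2 lower at 6 h, and 0 were higher and 3 lower at 24 h. Over all genes the shares were 5.38% higher and 10.5% lower at 6 h, and 4.55% and 13.2% at 24 h. The muscle enolase ENO3 was 2.48-fold lower at 24 h (88.4 to 35.7), and the testis form GAPDHS, with a 24 h signal under the floor, at least 2.20-fold lower. PDP1, the phosphatase that opposes the PDKs, was lower by 1.55-fold at 6 h and by 1.89-fold at 24 h (213, 138 and 113). GPD2, the mitochondrial glycerol-3-phosphate dehydrogenase, was 1.76-fold higher at 6 h (91.8 to 161). PFKFB1, at 25.5 in untreated cells and under the floor at 6 h, was at least 1.59-fold lower there. In a list of 16 genes of the pentose phosphate pathway and other branches, 14 were measured, and past 1.5-fold 1 was higher and 0 lower at 6 h, and 1 higher and 1 lower at 24 h, with the same shares over all genes. The glycogen phosphorylase PYGB was 1.56-fold lower at 24 h (184 to 118), and its dim paralogue PYGL 1.63-fold and 1.55-fold higher at 6 h and 24 h (17.6, 28.6 and 27.3).

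In a list of 44 further genes of the HIF system and its targets, 36 were measured, with medians of -0.15 at 6 h and -0.26 at 24 h. At 24 h, 7 were lower by 1.5-fold or more, 4 of them by 2-fold or more, and 1 was higher by 1.5-fold or more, against 13.2%, 4.02% and 4.55% of all genes. At 6 h 0 were higher and 3 lower by 1.5-fold or more, against 5.38% and 10.5%. The 1 gene higher at 24 h was the growth factor gene TGFA (176, 246 and 265), named after its values were seen. Its 2 probe sets did not lie in the same direction. The chemokine receptor CXCR4 was 2.99-fold lower at 24 h (3031 to 1013), PNRC1 2.86-fold (729 to 255), CITED2, which competes with HIF for the coactivator p300, 2.32-fold (719 to 311) and WSB1 2.18-fold (1226 to 563). DDIT4, an inhibitor of mTORC1, was 1.76-fold lower (224 to 128), the coactivator EP300 1.63-fold and VLDLR 1.62-fold. At 6 h, CITED2 was 1.77-fold, RORA 1.66-fold and WSB1 1.61-fold lower. The HIF partner ARNT was level (225, 250 and 227), and the ubiquitin ligase subunit VHL had 157, 119 and 119.

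At the filter, the closest member probe sets inside were a pair of SLC2A3, with mean signals of 22.3 or less, and a PFKFB2 probe set at 23.6. The closest outside belonged to HK2 and P4HA2, each at 19.7, and to VEGFA, at 17.8.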

How the data were processed

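Per the labels' protocols, 1 µg of total RNA per sample was labelled as biotinylated cRNA by Affymetrix's standard procedure. The authors' deposited table gives 1 linear intensity per probe set and array. The summary and scaling behind it are not given in the sources used here. Median deposited signals were 20.5, 17.4 and 17.2 for the untreated, 6 h and 24 h arrays. These medians over all probe sets lie close to the floor of 16, so centring on array medians rests on dim probe sets. Precision is limited by the number of arrays. Of 54675 probe sets, 41097 had exactly 1 symbol in GEO's 2016 platform annotation, 1801 several and 11777 none, and 41043 matched RefSeq by gene identifier, where ERO1LB is a synonym. Kept probe sets had a mean signal of at least 20, and signals below 16 were set to 16. A gene took its brightest kept probe set.

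All members were named, and of the further genes those at least 1.5-fold different from untreated cells at either time, with their kept probe sets in 1 direction. ERO1A, ARNT, VHL and TGFA fall outside this rule and were chosen after their values were seen, as was COL1A1. The members and lists were chosen with earlier results of these data known. The procedure was tested on simulated data. Changes above 2-fold were planted in genes with a mean signal of at least 100. That test did not cover calls of 1.5-fold, dimmer genes or scaling. Alternatives covered scaling, floor, filter, probe set summary, leaving out probe sets ending in _x_at or _s_at, and the classes. Leaving out Affymetrix control probe sets was chosen after seeing the data. Python 3.11.15, numpy 2.4.6, pandas 2.3.3 and matplotlib 3.10.9 were used.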

Additional observations from a re-analysis of the deposited data

Results flagged for a closer look

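Among the 36 members, 3 differed from untreated cells in opposite directions at 6 h and 24 h while the treated arrays differed at least 1.5-fold. The share of all genes that did so was not counted, so the number is no result about the members. With 1 array per time the difference was not tested, and both comparisons share the untreated array. PFKM, the muscle-type phosphofructokinase subunit, differed by -0.43 at 6 h and 0.50 at 24 h. PFKFB4, which makes the activator of phosphofructokinase, differed by -0.80 at 6 h, where its signal lay under the floor, and 0.48 at 24 h. P4HA2, a collagen prolyl hydroxylase subunit, differed by -0.52 at 6 h and 0.17 at 24 h.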

How the results depend on the processing

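No paired analysis was possible because each group has 1 array. Single members gave 1122 values under an alternative, and of the 134 that belong to a call of 1.5-fold, 0 changed direction. Among the rest, changes of direction were not counted. HK2 at 6 h, for example, went from -0.42 to 0.26 with the mean over probe sets. Calls of 1.5-fold held in 124 of 134 cases, and values short of it passed it in 14 of 988. Many of these alternatives could not change a value, since floor, filter and probe set choices leave a bright member with 1 kept probe set as it is. Scaling moved the list medians, since it moves the median of all genes at 6 h from -0.10 to 0.04 (quantile) or 0.13 (centring) and at 24 h from -0.13 to 0.05 or 0.12. With quantile normalization, centring on array medians and subtraction of the median gene, the enzymes' median was 0.01, 0.12 and -0.01 at 6 h and 0.01, 0.10 and -0.02 at 24 h. That of the other HIF targets was -0.05, 0.04 and -0.09 at 6 h and 0.07, 0.17 and 0.05 at 24 h. Members at least 1.5-fold higher at 24 h then numbered 4, 5 and 4 in place of 1, against 9.39%, 10.6% and 7.18% of all genes in place of 4.55%. After centring 1 was 2-fold higher, against 2.44% of all genes. With the mean over probe sets 2 were at least 1.5-fold higher at 24 h, against 3.77% of all genes. PFKFB2 joined there at 0.67, through a dim probe set with an untreated signal of 15.8, under the floor.

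At 6 h, members at least 1.5-fold lower numbered 2 of 36 in place of 4 with a floor of 64, against 4.91% of all genes. With a mean signal of at least 100 they were 2 of 30, against 5.84%. Without probe sets ending in _x_at or _s_at they were 2 of 20, against 12.2%. In the main setting the share of all genes was 10.5%. With a floor of 1 there was 1 member 2-fold lower, against 3.42% of all genes. At 24 h, members 2-fold lower numbered 0 in place of 1 with a floor of 64 or a mean of at least 100. The shares of all genes were then 1.44% and 1.95% in place of 4.02%. Without probe sets ending in _x_at or _s_at the members 2-fold lower were 2 of 20, against 4.45% of all genes, and the other targets' median was 0.04. TPI1 joined there because only its dim probe set, with a mean signal of 99.5, was left. Between the treated arrays, a floor of 64 or a mean of at least 100 left 0 members 2-fold higher and 1 at least 1.5-fold lower. Of all genes, 0.177% and 0.246% were then 2-fold higher, and 2.9% and 3.54% at least 1.5-fold lower. Without probe sets ending in _x_at or _s_at, 1 of 20 members was 2-fold lower in that comparison, against 1.92% of all genes. Between the treated arrays the other targets' median was 0.15 with a floor of 64 and without the filter. The gap between the classes was -0.15 there without the filter or with the mean over probe sets. With the PFKFB genes among the enzymes it was -0.01 at 6 h and -0.09 between the treated arrays.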
